A study of Homo sapiens with 4 samples.

Results

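The genes described here encode the subunits, activators, inhibitor and assembly chaperones of the proteasome, in the human lung adenocarcinoma cell line A549. Members were the genes whose annotated symbol is PSM followed by a letter from A to G and a number, which gave 44 of the 18132 genes with a symbol of their own, on 108 probe sets. For each gene the probe set with the highest mean over the arrays was used. The 4 conditions were the combination of 25 μmol/L dihydroberberine and 2 μmol/L sunitinib, dihydroberberine alone and sunitinib alone at these doses, and no drug, all at 48 h and with 1 array each. Dihydroberberine derives from berberine, an alkaloid of plants, by reduction, and sunitinib blocks receptor tyrosine kinases. The labels name no vehicle. With 1 array a condition no difference has a replicate check, so none was tested, and "higher" and "lower" compare those arrays.

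The proteasome is the cylinder-shaped protease that degrades proteins tagged with ubiquitin. Its core particle is built of rings of alpha subunits (PSMA), which gate the entry, and beta subunits (PSMB), a few of which carry the proteolytic sites, and cells exposed to interferon exchange these for the immunoproteasome subunits PSMB8, PSMB9 and PSMB10. The regulatory particle caps the core with a ring of ATPases (PSMC), which unfold substrates, and with non-ATPase subunits (PSMD), which bind and remove ubiquitin and hold the lid and base together. Activators of the PSME family can cap the core instead, PSMF1 is an inhibitor of the core, and PSMG proteins chaperone its assembly. In human cells the transcription factor NFE2L1 raises the transcription of proteasome subunits together when proteasome activity is short.

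Values are log2 probe set signals, and a gene was kept where at least 1 array reached a floor of log2 6.75, the median over gene probe sets. That left 10958 genes and 42 of the members, all 42 above the floor on every array, with values between log2 9.90 and 13.68. The remaining members were PSMA8, the testis form of an alpha subunit, at log2 3.90 to 4.26, and PSMB11, the catalytic subunit of the thymus proteasome, at log2 4.21 to 4.37, both under the floor on all arrays. The median of gene probe sets was log2 6.73 to 6.76 on the 4 arrays, and Pearson's r between arrays was 0.986 to 0.994 over these probe sets. Control signals set the dihydroberberine array apart, with log2 differences from untreated of -0.41 for Alu and -0.63 for 18S rRNA, against 0.03 and -0.21 on the combination array and 0.03 and -0.24 on the sunitinib array. The median of background probes was log2 6.948 with both drugs, 7.150 with dihydroberberine, 6.992 with sunitinib and 6.703 untreated. By this signal the untreated array was lowest. The floor lay under it on every treated array, so a signal above the floor need not be above background. The members kept, at log2 9.90 or more, were above it on all arrays. The part of these control signals in the results was not tested. Keratin genes KRT8, KRT18 and KRT19 lay above log2 13 on all arrays, while EPCAM and CDH1, markers of epithelium, lay under the floor on all of them, and 7 of 12 markers of other cell types were under the floor throughout. The summed level of the 12 markers was log2 10.73 with both drugs, 10.96 with dihydroberberine, 10.46 with sunitinib and 10.99 untreated. Of these, CD14 of monocytes had 8.82 untreated and was under the floor on the 3 other arrays. CD68 of macrophages had 7.06 with both drugs, 8.42 with dihydroberberine, 7.33 with sunitinib and 8.16 untreated, and ACTA2 of smooth muscle had 9.53, 9.39 and 8.49 in these conditions, against 8.90 untreated. The part of these markers in the results was not tested. In bulk RNA fewer cells of a type and less RNA per cell cannot be told apart.

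Promoter windows of 7 members are shown, taken from those that were lower in several comparisons below or carry an interferon response element core. Others that meet this are not shown, among them PSMB2, PSMB8, PSMD2 and PSMD11. Each window shown holds a match to the letters below, whereas the windows of PSMD2 and PSMD11, also lower in several comparisons, hold none. The windows run from 250 bases before to 50 bases after the start site, taken from RefSeq with build GRCh38.p14, and are written 5′ to 3′ on the gene's strand. Capitals mark matches on either strand to TGANNNNGC, the core of the antioxidant response element that NFE2L1 and NFE2L2 bind, to CCAAT, to CCGGAAG, a core for ETS factors, and to the core of the interferon response element, which is GAAA, any 2 bases, and GAAA again. No 2 matches overlapped in these windows.
PSME1, chr14:24135944-24136243, plus strand: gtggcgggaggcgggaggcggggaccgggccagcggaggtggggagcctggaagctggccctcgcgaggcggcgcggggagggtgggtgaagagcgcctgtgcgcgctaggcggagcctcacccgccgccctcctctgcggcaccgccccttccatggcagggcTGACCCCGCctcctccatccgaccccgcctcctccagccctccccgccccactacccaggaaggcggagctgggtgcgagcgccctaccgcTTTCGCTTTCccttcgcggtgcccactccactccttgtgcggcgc
PSME2, chr14:24146561-24146860, minus strand: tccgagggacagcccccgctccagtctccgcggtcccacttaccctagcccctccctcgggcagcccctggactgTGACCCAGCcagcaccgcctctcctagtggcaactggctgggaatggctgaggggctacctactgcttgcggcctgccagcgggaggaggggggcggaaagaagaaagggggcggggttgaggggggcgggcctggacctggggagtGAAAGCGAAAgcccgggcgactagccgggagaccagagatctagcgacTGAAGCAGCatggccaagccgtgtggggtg
PSMB10, chr16:67936801-67937100, minus strand: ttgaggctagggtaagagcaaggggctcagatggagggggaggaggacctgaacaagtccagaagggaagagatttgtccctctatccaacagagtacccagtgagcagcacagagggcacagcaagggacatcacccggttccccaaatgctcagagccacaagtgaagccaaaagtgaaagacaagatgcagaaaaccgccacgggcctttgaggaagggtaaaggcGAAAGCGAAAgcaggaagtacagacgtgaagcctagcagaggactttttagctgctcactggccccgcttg
PSMB3, chr17:38752491-38752790, plus strand: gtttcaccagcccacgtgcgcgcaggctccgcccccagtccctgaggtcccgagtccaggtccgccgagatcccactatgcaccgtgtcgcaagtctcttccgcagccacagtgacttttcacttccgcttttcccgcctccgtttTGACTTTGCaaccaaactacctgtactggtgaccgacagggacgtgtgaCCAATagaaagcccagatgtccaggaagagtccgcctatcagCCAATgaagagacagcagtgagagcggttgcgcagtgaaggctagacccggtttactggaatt
PSMC3, chr11:47426390-47426689, minus strand: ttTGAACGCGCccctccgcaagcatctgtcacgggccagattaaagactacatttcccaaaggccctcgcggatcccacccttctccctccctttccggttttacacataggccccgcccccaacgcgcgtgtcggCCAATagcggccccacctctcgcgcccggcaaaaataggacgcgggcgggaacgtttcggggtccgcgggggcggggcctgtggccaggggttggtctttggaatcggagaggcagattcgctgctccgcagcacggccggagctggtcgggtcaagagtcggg
PSMC4, chr19:39970915-39971214, plus strand: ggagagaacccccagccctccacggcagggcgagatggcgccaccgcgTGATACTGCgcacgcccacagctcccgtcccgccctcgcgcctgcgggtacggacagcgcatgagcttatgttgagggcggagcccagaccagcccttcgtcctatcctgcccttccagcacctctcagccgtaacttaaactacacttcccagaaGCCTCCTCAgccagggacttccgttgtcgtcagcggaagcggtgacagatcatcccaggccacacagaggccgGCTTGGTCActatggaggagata
PSMD3, chr17:39980557-39980856, plus strand: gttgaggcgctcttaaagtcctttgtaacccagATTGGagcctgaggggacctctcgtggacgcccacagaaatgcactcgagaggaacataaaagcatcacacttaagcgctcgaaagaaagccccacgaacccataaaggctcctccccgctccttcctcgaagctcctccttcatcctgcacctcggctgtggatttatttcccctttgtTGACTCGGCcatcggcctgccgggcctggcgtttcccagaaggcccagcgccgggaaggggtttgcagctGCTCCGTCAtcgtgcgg

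The interferon response element core starts at position -28 in PSME2 and at position -21 in PSMB10, and in PSME1 at position 6 on the opposite strand, where position 1 is the start site. It was found in windows of 7 of the 38 members with an entry (PSMA4, PSMB4, PSMB8, PSMB10, PSME1, PSME2 and PSMG4), or 15.6% of 45 member windows, against 3.57% of all 35116 windows. The antioxidant response element core was in 62.2% of member windows and 41.8% of all windows, and the ETS core in 26.7% and 10.3%. CCAAT was in 40.0% of member windows and 34.6% of all. A match of these letters is a description of the sequence and not a site shown to be bound.

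With both drugs together, proteasome transcripts were mostly lower than in untreated cells by small amounts. Of the 42 members 33 had a negative difference, where 52.7% of all genes kept did, and the median difference was -0.17 against -0.02 for all genes. The 3179 genes averaging log2 10 or more, a range that holds all 42 members, had a median of -0.07. Past 1.2-fold, a size chosen at about 2 times the spread between probe sets of a gene (median SD 0.12), 13 members were lower (31.0%), where 25.5% of all genes were, and 0 were higher, where 22.4% of all genes were. After quantile normalization of the arrays 9 were lower and 2 higher. That setting moved the all-gene median by 0.02, and no share of all genes past 1.2-fold is given for it. Past 1.5-fold, 4 members were lower (PSMB3, PSMC3, PSMC4 and PSMD3), where 7.24% of all genes were, and 0 were higher, where 6.85% were. The share of lower members is thus near that of all genes. Just past 1.2-fold lay PSMB10 at 1.21-fold lower, and just short of it PSMB5 at 1.197-fold lower.

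**Figure D1:**
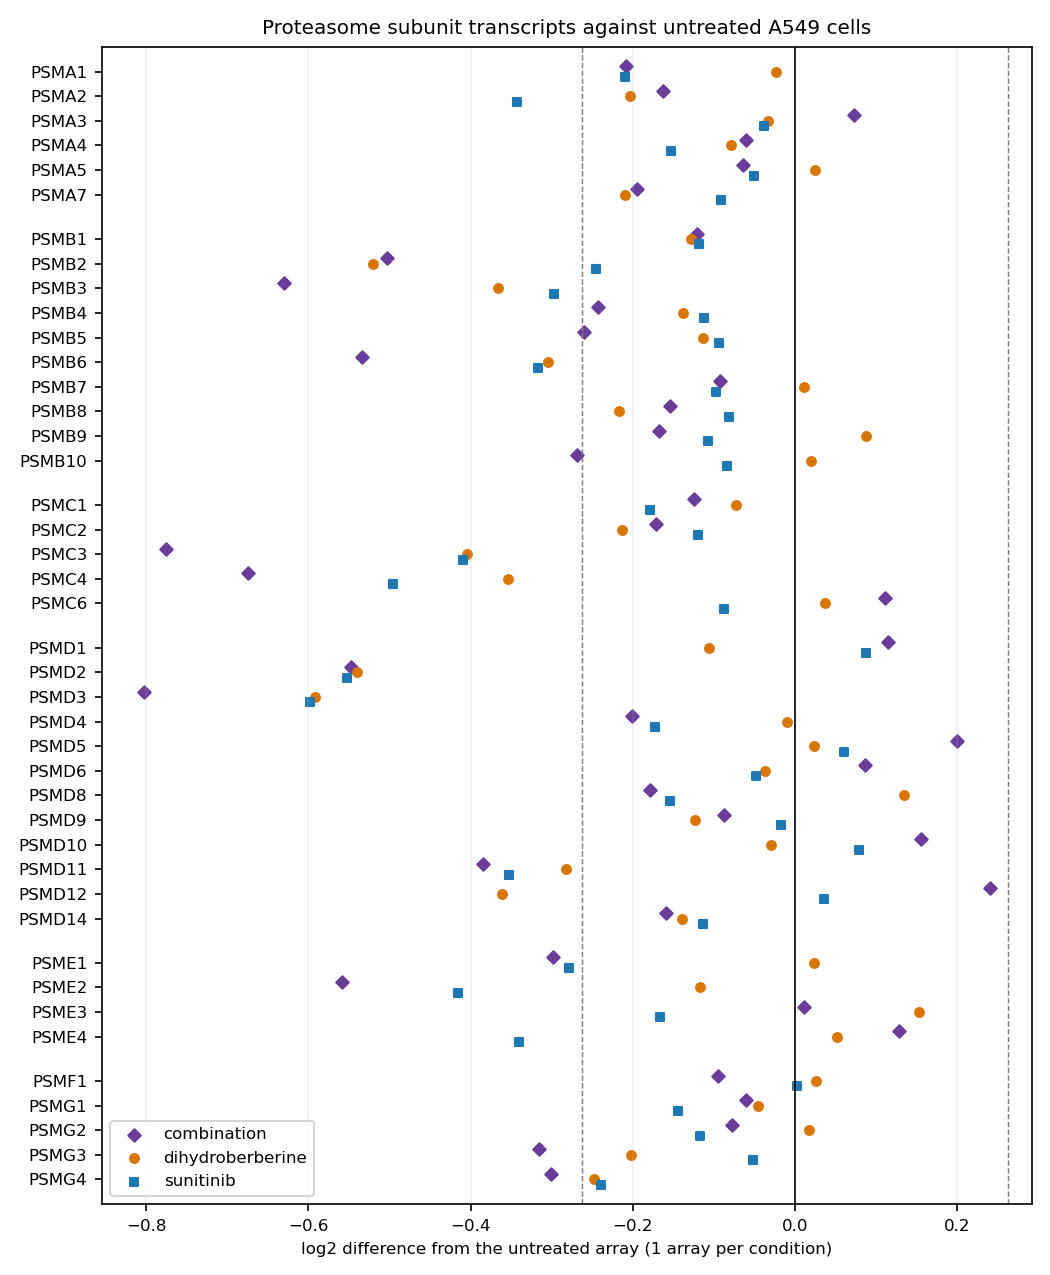
Log2 difference from the untreated array for the 42 members kept (horizontal axis), 1 row per gene grouped by family, for the combination (diamonds), dihydroberberine (circles) and sunitinib (squares). Each point is 1 array minus 1 array, and dashed lines mark 1.2-fold. No point lies beyond the right dashed line, and PSMD3 at -0.80 and PSMC3 at -0.78 with both drugs lie farthest left.

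With dihydroberberine alone 9 members were past 1.2-fold lower, where 29.6% of all genes were, and 0 higher, where 20.8% were. With sunitinib alone 11 were lower, where 20.7% of all genes were, and 0 higher, where 13.5% were. After quantile normalization 5 members were lower with dihydroberberine and 5 with sunitinib, with 0 higher in each. After centring each array on the median of genes kept 4 were lower and 1 higher with dihydroberberine. No share of all genes is given for these settings. Past 1.5-fold, PSMD3 was the 1 member lower with dihydroberberine, where 12.6% of all genes were, and with 0 higher, where 4.86% were. PSMD3 was also the 1 member past 1.5-fold lower with sunitinib, where 3.78% of all genes were, with 0 higher, where 1.61% were. Negative differences were found for 30 of the 42 members with dihydroberberine, where 53% of all genes had one, and for 37 with sunitinib, where 55.6% of all genes and 65.5% of those averaging log2 10 or more had one. The median differences were -0.11 and -0.12, against -0.03 and -0.04 for all genes and -0.09 and -0.09 for the brighter genes. These comparisons and that of the combination share the untreated array. Centring moved the all-gene difference for dihydroberberine by 0.13 and turned the members' median to 0.02. Relative to all genes the members' median for dihydroberberine was -0.08 as deposited and -0.08 after centring, but -0.01 with the floor at the 75th percentile of gene probe sets and -0.15 with no floor.

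**Figure D2:**
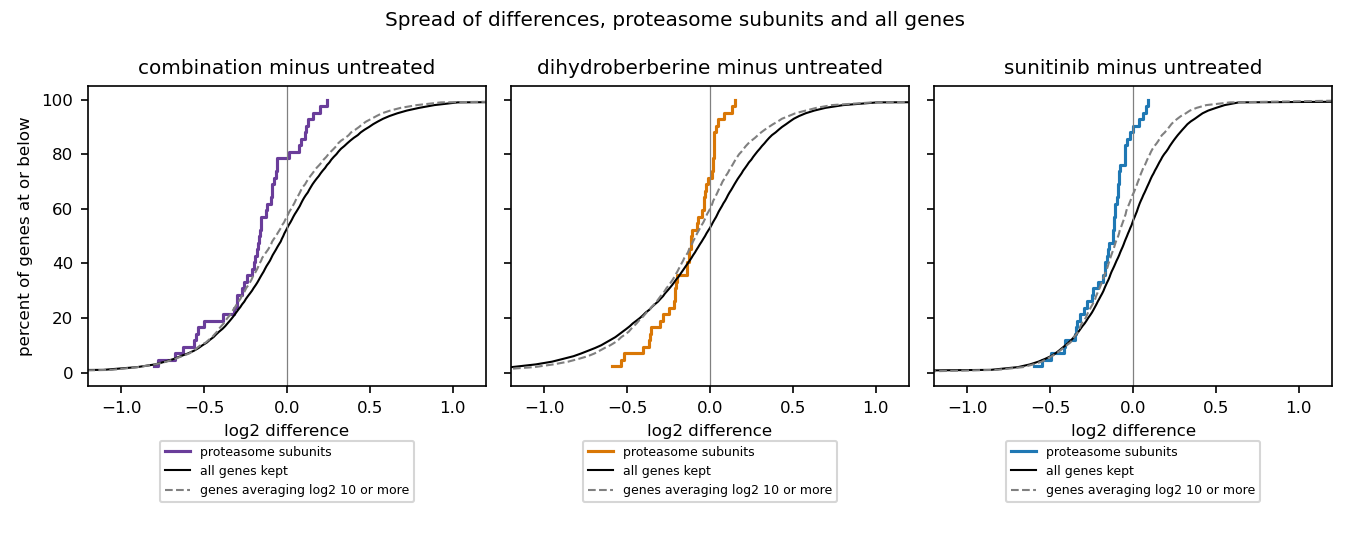
Cumulative percent of genes (vertical axis) at or below a log2 difference from untreated (horizontal axis), for the combination, dihydroberberine and sunitinib. Coloured steps are the 42 proteasome subunits, the solid line all 10958 genes kept and the dashed line the 3179 genes averaging log2 10 or more. The subunits end at 0.24, 0.15 and 0.09 on the right, while the lines of all genes run on.

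The alpha subunits of the core lay near untreated, with 1 exception. PSMA2 had 12.48 with both drugs, 12.44 with dihydroberberine, 12.30 with sunitinib and 12.64 untreated. It was the only PSMA gene past 1.2-fold in any comparison, at a log2 difference of -0.34 with sunitinib alone, and both of its probe sets were lower. PSMA7 had 13.48, 13.47 and 13.59 with both drugs, dihydroberberine and sunitinib, against 13.68 untreated, so it was highest in untreated cells. PSMA1 had 12.84 with both drugs and 12.84 with sunitinib, against 13.02 with dihydroberberine and 13.04 untreated, which places the arrays with sunitinib below those without it by about 0.2. The 6 PSMA genes kept had differences between -0.21 and 0.07 with both drugs.

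All 10 beta subunits kept were lower with both drugs than untreated, with differences between -0.63 and -0.09 and a median of -0.25. PSMB3, a structural subunit of the beta ring, had 12.94 with both drugs, 13.20 with dihydroberberine, 13.27 with sunitinib and 13.57 untreated. It was 1.55-fold lower with both drugs, and each drug alone lay between the combination and untreated cells. PSMB3 has 1 probe set, so no other probes of the gene can be set beside it. PSMB2, another structural beta subunit, had 12.26 with both drugs and 12.25 with dihydroberberine, against 12.52 with sunitinib and 12.77 untreated. It was 1.42-fold lower with both drugs and 1.43-fold lower with dihydroberberine, and its 3 probe sets ranged from -0.72 to -0.52 with dihydroberberine.

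The constitutive catalytic subunits did not move alike. PSMB6, which carries the caspase-like site, had 12.64 with both drugs, 12.87 with dihydroberberine, 12.85 with sunitinib and 13.17 untreated. Its log2 difference was -0.53 with both drugs, -0.30 with dihydroberberine and -0.32 with sunitinib, from 1 probe set. PSMB5, the chymotrypsin-like subunit and main target of the proteasome inhibitor bortezomib, had 12.96, 13.11 and 13.13 with both drugs, dihydroberberine and sunitinib, against 13.22 untreated. Its difference with both drugs was -0.26, just under 1.2-fold, on the probe set used, and between -0.61 and -0.26 on its 5 probe sets, so the probe set used gave the smallest. PSMB7, the trypsin-like subunit, had 13.26 with both drugs, 13.36 with dihydroberberine, 13.25 with sunitinib and 13.35 untreated, and its differences from untreated lay between -0.10 and 0.01.

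Of the immunoproteasome subunits, PSMB10, which replaces PSMB7, had 11.13 with both drugs, 11.42 with dihydroberberine, 11.32 with sunitinib and 11.40 untreated. It was lowest with both drugs, at -0.27 against untreated and -0.29 against dihydroberberine, with 3 probe sets of the same sign in both of these. PSMB9, which replaces PSMB6, had 10.63, 10.88 and 10.69 with both drugs, dihydroberberine and sunitinib, against 10.79 untreated. Its order over the arrays matches that of PSMB10, with differences under 1.2-fold from untreated on the probe set used. Another PSMB9 probe set above the floor had -0.41 with both drugs against untreated. PSMB8, which replaces PSMB5, had 11.18 with both drugs, 11.12 with dihydroberberine, 11.26 with sunitinib and 11.34 untreated. It was lowest with dihydroberberine on the probe set used. Another PSMB8 probe set above the floor had 11.066 with both drugs and 11.070 with dihydroberberine, each at -0.34 from untreated.

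**Figure D3:**
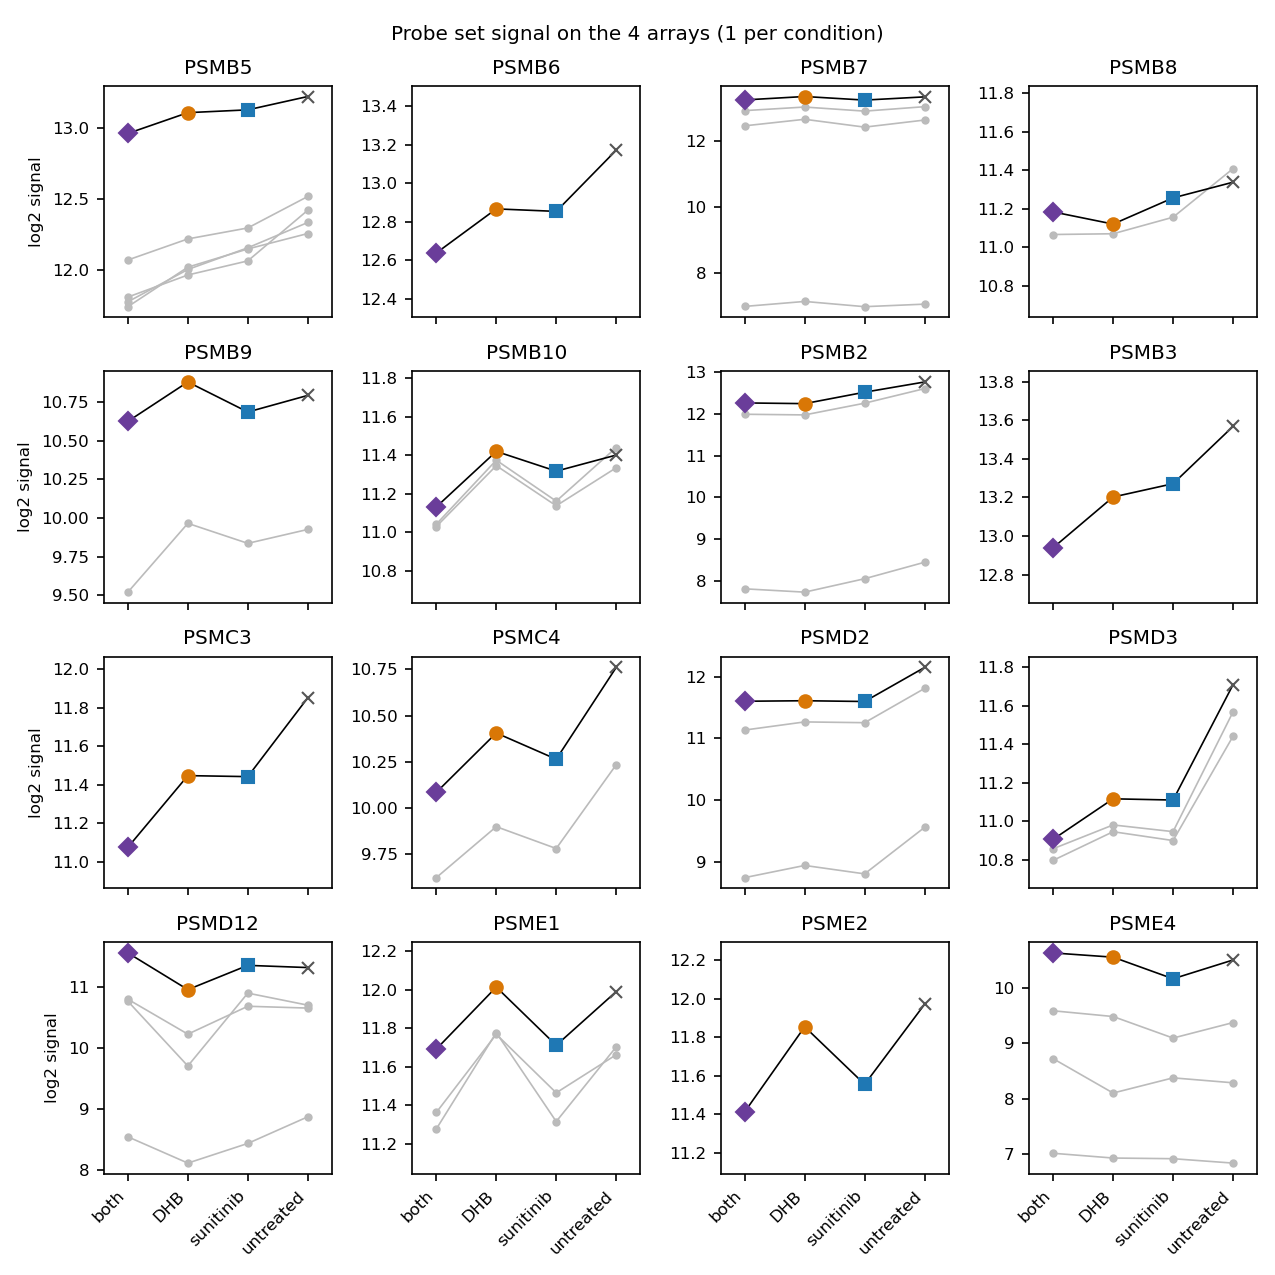
Log2 signal (vertical axes, a scale of its own for each gene) on the 4 arrays, from left to right both drugs, dihydroberberine (DHB), sunitinib and untreated. Coloured markers are the probe set used and grey points are the gene's other probe sets above the floor on all arrays. PSMC3, PSMC4, PSMB3, PSMB6 and PSMD3 are highest on the untreated and lowest on the combination array, PSMD12 is lowest with dihydroberberine, and PSME1 and PSME2 are lower on both arrays with sunitinib.

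Among the ATPases of the regulatory particle PSMC3 and PSMC4 stood lowest. PSMC3 had 11.07 with both drugs, 11.45 with dihydroberberine, 11.44 with sunitinib and 11.85 untreated, from 1 probe set. That is 1.71-fold lower with both drugs, 1.32-fold with dihydroberberine and 1.33-fold with sunitinib, with a deviation from additivity (the combination minus both drugs alone plus untreated) of 0.04. PSMC4 had 10.09 with both drugs, 10.41 with dihydroberberine, 10.26 with sunitinib and 10.76 untreated, with both probe sets lower in each comparison with untreated, and was 1.60-fold lower with both drugs. PSMC2 had 11.76, 11.72 and 11.81 with both drugs, dihydroberberine and sunitinib, against 11.93 untreated. PSMC1 and PSMC6 differed from untreated by -0.18 to 0.11 in the 3 conditions.

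Among the non-ATPase subunits PSMD2, PSMD3 and PSMD11 were past 1.2-fold lower in every treated condition. On the probe sets used PSMD4, PSMD9 and PSMD14 were also lower in each of these, by less than 1.2-fold. PSMD3, a lid subunit, had 10.91 with both drugs, 11.12 with dihydroberberine, 11.11 with sunitinib and 11.71 untreated. It was 1.74-fold, 1.51-fold and 1.51-fold lower in these conditions than in untreated cells, and its 3 probe sets gave -0.80 to -0.64 with both drugs. PSMD2, a large scaffold of the base that docks ubiquitin receptors, had 11.60 with both drugs, 11.61 with dihydroberberine and 11.60 with sunitinib, against 12.15 untreated. On the probe set used each drug alone therefore gave the difference of the combination, about -0.55. The deviation from additivity was 0.54 for PSMD2 and 0.39 for PSMD3. For both genes the untreated array enters every one of the larger differences. Between treated arrays, on the probe sets used, PSMD2 differed by at most 0.01 and PSMD3 by at most 0.21. The other probe sets of PSMD2 had the combination below dihydroberberine, at -0.20 and -0.13. PSMD11, another lid subunit, was also lower in all 3 conditions, by log2 differences of -0.38, -0.28 and -0.35 for both drugs, dihydroberberine and sunitinib.

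PSMD12, a lid subunit, had 11.56 with both drugs, 10.96 with dihydroberberine, 11.36 with sunitinib and 11.32 untreated. Its low value lay on the dihydroberberine array, 1.29-fold under untreated, and the combination lay above that array by 0.60, the largest positive difference of any member kept. All 4 of its probe sets had the same sign, from -1.0 to -0.36 for dihydroberberine against untreated and from 0.43 to 1.06 for the combination against dihydroberberine. The Alu and 18S control signals were lowest on that array as well, and their part in the result was not tested. On the probe sets used, the other PSMD genes were within 1.2-fold of untreated in all 3 conditions. Among them were PSMD14, the deubiquitinase of the lid, and PSMD4, a ubiquitin receptor. Some probe sets not used differed more, with -0.42 for PSMD14 and -0.35 for PSMD8 with both drugs.

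The activators PSME1 and PSME2, which form the interferon-inducible cap of the core together, were lower on both arrays with sunitinib. PSME1 had 11.69 with both drugs and 11.71 with sunitinib, against 12.01 with dihydroberberine and 11.99 untreated. PSME2 had 11.41 with both drugs and 11.56 with sunitinib, against 11.86 with dihydroberberine and 11.97 untreated, from 1 probe set. The arrays without sunitinib were thus higher for both genes, and dihydroberberine alone differed from untreated by 0.02 and -0.12. PSME4, a nuclear activator, had 10.64 with both drugs, 10.56 with dihydroberberine, 10.17 with sunitinib and 10.51 untreated. It was low on the sunitinib array, at -0.34, but only 2 of its 4 probe sets above the floor had a negative difference there. PSME3, a nuclear activator related to PSME1 and PSME2, differed from untreated by 0.01, 0.15 and -0.17 with both drugs, dihydroberberine and sunitinib on the probe set used. Its other probe sets above the floor had -0.16 and -0.25 with dihydroberberine.

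Of the assembly chaperones, PSMG3 had 9.90 with both drugs, 10.01 with dihydroberberine, 10.16 with sunitinib and 10.22 untreated. It was 1.24-fold lower with both drugs, from 1 probe set. PSMG4 had 10.45, 10.50 and 10.51 with both drugs, dihydroberberine and sunitinib, against 10.75 untreated, but only 3 of its 5 probe sets above the floor were lower with both drugs. With the mean of all its probe sets the difference was 0.08. PSMG1 had 11.15, 11.17 and 11.07 with both drugs, dihydroberberine and sunitinib, against 11.21 untreated. PSMF1, the inhibitor, differed from untreated by -0.09, 0.03 and 0.00 with both drugs, dihydroberberine and sunitinib on the probe set used. Its 6 probe sets spread wider, from -0.31 to -0.07 with both drugs and from -0.39 to 0.03 with dihydroberberine.

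The difference made by each drug can also be read in the presence of the other, from arrays that the first reading did not use. For dihydroberberine this sets the combination against sunitinib, where 3 members were past 1.2-fold lower (PSMB3, PSMC3 and PSMG3), where 12.2% of all genes were, and 1 higher (PSME4), where 17.4% were. Past 1.5-fold there were 0 lower, where 1.47% of all genes were, and 0 higher, where 3.58% were, and 25 members were below 0, where 49.2% of all genes were. PSMB3 and PSMC3 were lower past 1.2-fold without and with sunitinib, 2 of 42 members, where 7.01% of all genes were, and 0 were higher in both, where 7.81% were. PSMC3 had -0.40 without sunitinib and -0.37 with it, and PSMB3 -0.37 and -0.33. PSMB2, at -0.52 and -0.26, was just under that size in the second reading. Members below 0 in both readings numbered 19 of 42, where 32.2% of all genes were.

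For sunitinib the second reading sets the combination against dihydroberberine, where 7 members were past 1.2-fold lower, where 18.5% of all genes were, and 1 (PSMD12) was higher, where 25.6% were. Past 1.5-fold 0 were lower, where 2.75% of all genes were, and PSMD12 was the 1 higher, where 10.3% were, and 26 members were below 0, where 50.7% of all genes were. In both readings 5 of 42 members were lower past 1.2-fold (PSMB3, PSMC3, PSMC4, PSME1 and PSME2), where 7.36% of all genes were, and 0 were higher in both, where 5.68% were. PSME2 had -0.42 without and -0.44 with dihydroberberine, PSME1 -0.28 and -0.32, PSMC3 -0.41 and -0.37, PSMC4 -0.50 and -0.32, and PSMB3 -0.30 and -0.26, the last of these only just past 1.2-fold. Members below 0 in both readings numbered 25 of 42, where 32.4% of all genes were. Across the 42 members, which are not independent replicates, the readings correlated with a Pearson coefficient of 0.51 for dihydroberberine and 0.54 for sunitinib, against 0.45 and 0.30 across all genes kept. Of the 7 members with the interferon response element core, PSME1, PSME2 and PSMB10 were past 1.2-fold lower in the combination against dihydroberberine. PSMA4, PSMB4, PSMB8 and PSMG4 differed by -0.10 to 0.06 there. In that comparison 7 of all 42 members and 18.5% of all genes were past that size lower. With sunitinib alone against untreated, PSME1 and PSME2 were past 1.2-fold lower, PSMB10 had -0.08, and the others had -0.24 to -0.08. A part of this element in the differences was not tested.

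**Figure D4:**
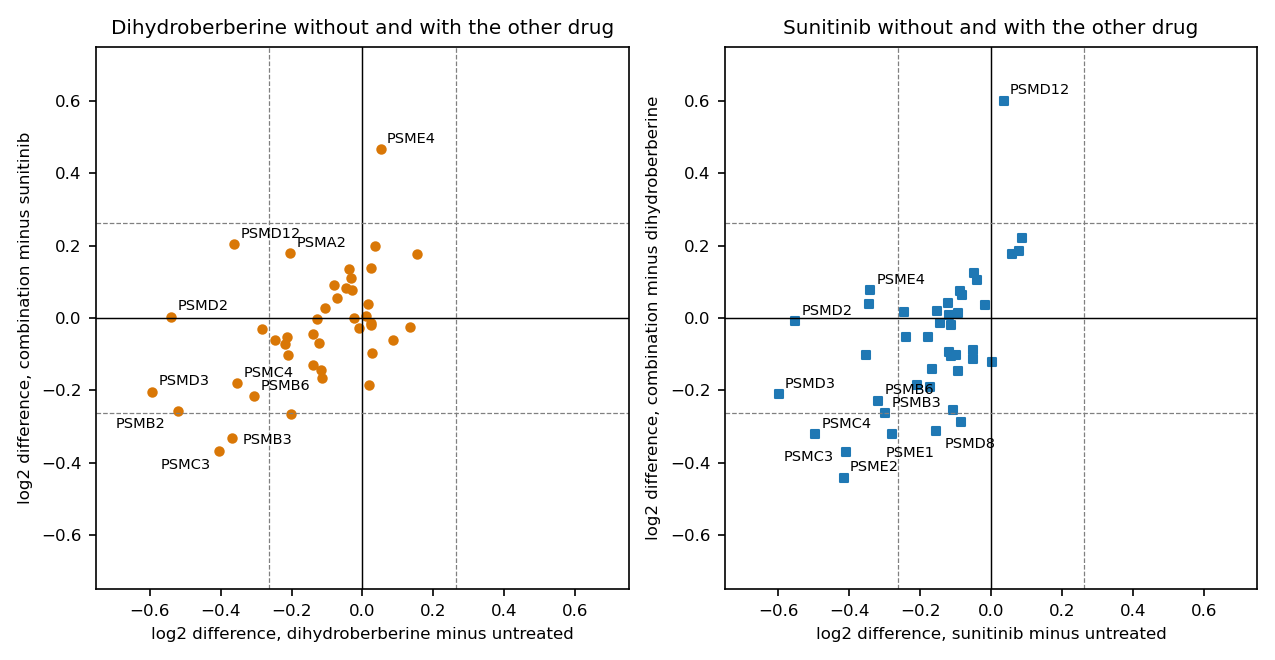
Log2 difference made by dihydroberberine (left) and by sunitinib (right), without the other drug on the horizontal axis and with it on the vertical axis, for the 42 members kept. Each point is 1 gene, each axis uses arrays the other does not, and dashed lines mark 1.2-fold. In the lower left corner beyond the dashed lines lie PSMB3 and PSMC3 on the left, and these with PSMC4, PSME1 and PSME2 on the right.

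For the deviation from additivity the members had a median of 0.11, against 0.06 for all genes and 0.10 for those averaging log2 10 or more. Past 1.2-fold 5 members deviated upward (PSMA2, PSMD2, PSMD3, PSMD12 and PSME4), where 30.6% of all genes did, and 0 downward, where 17.7% did. Past 1.5-fold 0 deviated upward, where 12.2% of all genes did, and 0 downward, where 3.73% did, and 11 members were below 0, where 42.9% of all genes were.

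Proteins that work with the proteasome differed most on the dihydroberberine array. Of 14 measured associated proteins 7 were past 1.2-fold lower with dihydroberberine alone, where 29.6% of all genes were, and 1 higher, where 20.8% were, with a median of -0.24. With sunitinib 2 were lower, where 20.7% of all genes were, and 0 higher, where 13.5% were, with a median of -0.03. AKIRIN2, which brings proteasomes into the nucleus, had 10.69 with both drugs, 10.16 with dihydroberberine, 10.86 with sunitinib and 11.32 untreated, lowest with dihydroberberine. UBE3C, a ubiquitin ligase bound to the proteasome, had a difference of -0.75 and UBQLN4, a shuttle for ubiquitinated proteins, one of -0.64 with dihydroberberine. In the combination against dihydroberberine 7 of the 14 were higher, where 25.6% of all genes were, and 1 lower, where 18.5% were. ADRM1, a ubiquitin receptor of the regulatory particle, was lower in all 3 conditions, by -0.39 with both drugs, -0.37 with dihydroberberine and -0.26 with sunitinib. POMP, the maturation protein of the core, differed by at most 0.09.

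The factors around NFE2L1 did not share a direction. NFE2L1 itself had 11.18 with both drugs, 10.99 with dihydroberberine, 11.43 with sunitinib and 11.11 untreated, so it was highest with sunitinib. VCP, the segregase that extracts proteins from membranes and complexes, had 10.69, 10.52 and 10.87 with both drugs, dihydroberberine and sunitinib, against 11.49 untreated, lower in every treated condition. DDI2, the protease that cleaves NFE2L1, had 7.45 with both drugs, 6.51 with dihydroberberine, 7.66 with sunitinib and 7.65 untreated, under the floor with dihydroberberine alone. NGLY1, the glycanase that edits NFE2L1, was higher by 0.62 with dihydroberberine alone. SEL1L, a subunit of the endoplasmic reticulum degradation ligase, was higher by 0.89 with both drugs, 0.42 with dihydroberberine and 0.24 with sunitinib. MAFF, a small partner of NFE2 factors, had 7.13 with both drugs, 7.72 with dihydroberberine, 5.39 with sunitinib and 6.38 untreated, under the floor on the arrays with sunitinib alone and untreated. NFE2L2 differed by 0.57 with both drugs, 0.34 with dihydroberberine and 0.13 with sunitinib. Of the 9 measured genes of this list 4 were past 1.2-fold lower and 4 higher with dihydroberberine, 2 lower and 1 higher with sunitinib, and 1 lower and 4 higher with both drugs. The shares of all genes were 29.6% lower and 20.8% higher with dihydroberberine, 20.7% and 13.5% with sunitinib, and 25.5% and 22.4% with both drugs.

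Ubiquitin supply was measured by 5 of 12 listed genes, of which 3 were past 1.2-fold lower with both drugs, where 25.5% of all genes were, and 1 higher, where 22.4% were. UBA1, the main ubiquitin-activating enzyme, had 11.14 with both drugs, 11.30 with dihydroberberine, 11.13 with sunitinib and 11.71 untreated. UBA6, the other activating enzyme, was higher by 0.61 with both drugs, and UBE2R2, a ubiquitin-conjugating enzyme, had -0.42. The list of antigen presentation genes, which also holds the regulator IRF1, had 2 of 10 past 1.2-fold lower (TAP2 and IRF1) and 3 higher with both drugs. These counts were near the 25.5% and 22.4% of all genes. HLA-B was higher by 0.73 with both drugs, 0.78 with dihydroberberine and 0.26 with sunitinib, whereas TAP2, a subunit of the peptide transporter, was lower by -0.48, -0.24 and -0.31. IRF1, an interferon-induced activator of immunoproteasome genes, differed by -0.33, -0.46 and -0.16 in these conditions.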

How the data were processed

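Total RNA in 4 samples of A549 cells was amplified and labelled with biotin by a 3′ IVT kit for Affymetrix arrays, per the labels' protocols. An Agilent array in the design text and Cy3 in the label field go against the Affymetrix probe set names. The authors deposited log2 probe set values. Per the submitters' processing notes, the software was Affymetrix Expression Console. For its version, summarization and scaling nothing is given in the sources used here. The log2 scale was read from the range, 3.01 to 15.4.

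Of 49395 probe sets 102 were controls. The platform annotation gave 1 symbol to 44988, several to 1832 and none to 2473, and only probe sets with 1 symbol were used. A probe set named for PSMA6 and another gene was left out for that reason, and other proteasome genes without such a probe set were not analysed here. Genes were kept where 1 array reached the floor (log2 6.75). Differences of log2 values were taken for 5 comparisons with Python 3.11.15 and pandas 2.3.3, checked on simulated shifts, and described without a test, since 1 array a condition leaves the error between cultures unknown. Probe set SD was the only spread available. Members and lists were chosen with earlier results of these data known. By rule, all arrays are printed for the catalytic subunits, up to 3 members of largest difference per family and those past 1.5-fold. From related lists up to 3 genes of largest difference per comparison are named. Outside these rules, PSMD11, PSME3, PSMC1, PSMC6, PSMF1, NFE2L1, NFE2L2, NGLY1, ADRM1, POMP, CD14, CD68 and ACTA2 were named after their values were seen. The 6 alternatives covered normalization, probe set choice and the floor, and 2 more were added after seeing the data. Promoter windows came from RefSeq.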

Additional observations from a re-analysis of the deposited data

Results flagged for a closer look

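For 4 members the difference made by a drug had opposite signs without and with the other drug, with a deviation from additivity past 1.2-fold. With 1 array a condition these differences were not tested. They were 3 of 42 members for dihydroberberine, where 27.0% of all genes kept did so, and 2 of 42 for sunitinib, where 30.3% did. PSMD12 had -0.36 for dihydroberberine alone and 0.20 in the presence of sunitinib, a deviation of 0.57. PSMD2 had -0.54 and 0.004, a deviation of 0.54, and its second value is close to 0. The other 2 probe sets of PSMD2 were lower in both readings, at -0.06 and -0.12 in the presence of sunitinib. PSMA2 had -0.20 and 0.18 for dihydroberberine, and for sunitinib -0.34 alone and 0.04 in the presence of dihydroberberine, with a deviation of 0.38. Its second probe set had -0.10 in the presence of dihydroberberine, so the sign change for sunitinib rests on 1 probe set. PSME4 had -0.34 for sunitinib alone and 0.08 in the presence of dihydroberberine, a deviation of 0.42. Only 2 of its 4 probe sets above the floor had this sign change. The others had 0.09 and 0.08 for sunitinib alone, and 0.62 and 0.09 in the presence of dihydroberberine.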

How the results depend on the processing

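Of 66 values of the members' medians and counts recomputed under other settings, 60 stayed within the probe set spread or within 1.5 times the count. The counts in this section stand without the share of all genes under the same setting. After quantile normalization 5 members were past 1.2-fold with dihydroberberine and 5 with sunitinib. After centring each array on the median of genes kept, the dihydroberberine median was 0.0183 with 5 members past 1.2-fold. In the combination against dihydroberberine 13 members were past it, where centring moved the all-gene median by -0.12. The median deviation from additivity was -0.0797 after centring. Of 45 calls past 1.2-fold over the 5 comparisons, 45 kept their sign and 30 their size after quantile normalization, and 45 and 36 after centring. With the mean of all probe sets PSMG4 turned to 0.0817 for the combination against untreated. In a count added after seeing the data, members past 1.2-fold with 2 or more probe sets of the same sign were taken. They numbered 6 for sunitinib, 7 for the combination, 1 for the combination against sunitinib and 5 for the combination against dihydroberberine, of 29 members with 2 or more such probe sets. For dihydroberberine against untreated they were PSMB2, PSMC4, PSMD2, PSMD3, PSMD11 and PSMD12. Why these values differ was not tested. No paired analysis was possible because each condition has 1 array.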

Other observations

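Dimmer probe sets of some subunits gave other values than the probe set used, with the dihydroberberine array lowest. For PSMA1 the second probe set had 7.63 with both drugs, 6.68 with dihydroberberine, 7.59 with sunitinib and 7.41 untreated, under the floor with dihydroberberine, where the probe set used differed by -0.02 between dihydroberberine and untreated. The second probe set of PSMD9 had 7.26, 6.31 and 7.24 with both drugs, dihydroberberine and sunitinib, against 7.03 untreated, and was also under the floor with dihydroberberine. A second probe set of PSMC2 had 8.27, 7.34 and 8.16 in these conditions, against 7.58 untreated.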
